A study of Mus musculus with 11 samples.

Results

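The genes described here are 8 genes that mark the epicardium and the mesothelium, Wt1, Tcf21, Tbx18, Aldh1a2, Upk3b, Msln, Krt8 and Krt19, chosen by name from 25006 genes with counts in left ventricle tissue of 11 mice. The epicardium is the mesothelial sheet that covers the heart, and mesothelium of the same kind lines the pericardial and pleural cavities. WT1, TCF21 and TBX18 are transcription factors of the embryonic epicardium, and TCF21 is also expressed in cardiac fibroblasts of the adult heart. ALDH1A2 makes retinoic acid, a signal that the embryonic epicardium releases. UPK3B, a uroplakin, and MSLN, mesothelin, are surface proteins of mesothelial cells, and KRT8 and KRT19 are keratins of simple epithelia that mesothelial cells share. After injury to the heart, epicardial cells are known to turn embryonic genes back on, so the genes were read here in naive hearts and after myocardial infarction (MI).

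Each library came from 1 mouse. The groups were naive Vegfc fl/fl mice (M44 and M45), naive Vegfc fl/fl LysMCre mice (M149, M150 and M34), Vegfc fl/fl mice after MI (M006, M38 and M40) and Vegfc fl/fl LysMCre mice after MI (M35, M900 and M913). All of these mice carried the floxed Vegfc allele according to the genotype field of the labels. LysMCre, in which Cre is expressed from the Lyz2 gene, acts in macrophages, monocytes and also neutrophils. The protocol text of the labels instead names LysMCre mice as the controls, so the presence of Cre in the control group is not settled by the labels. MI was made by permanent ligation of the left anterior descending artery, the infarcted ventricle was collected after 9 days, and a matching piece of ventricle was taken from naive mice, whose ages the sources used here do not give.

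The files gave 10824989 to 26782728 counted reads per library, and 3 reads, taken as the limit that a count of 0 allows, amounted to 0.101 to 0.363 CPM, for counting error only. CPM are counts scaled by library size. Expression of Vegfc itself ran from 21.9 to 45.5 CPM and overlapped between all groups, whereas Lyz2 was at 12.4 to 1392 CPM in the MI LysMCre libraries and at 4538 to 5380 CPM in the MI Vegfc fl/fl libraries. The library labelled naive LysMCre M149 went against its group, with Lyz2 at 4565 CPM, where M150 and M34 had 72.5 and 245 CPM and the naive Vegfc fl/fl libraries had 2121 and 2282 CPM. Xist expression was 188 to 403 CPM after MI (6 libraries) against 0.624 to 11.8 CPM in naive hearts (5 libraries), and 4 Y-linked genes together had 152 to 195 CPM in naive libraries and at most 1.84 CPM in MI libraries. The effect of MI and that of sex therefore cannot be told apart in any value of naive against MI hearts given below.

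All 8 genes passed the filter on low counts, and none was at or under 3 reads in any library. Wt1 (ENSMUSG00000016458) lies on chromosome 2 of GRCm38 from 105126529 to 105173616. Tcf21 (ENSMUSG00000045680) lies on chromosome 10 from 22817281 to 22820174, and Tbx18 (ENSMUSG00000032419) on chromosome 9 from 87702800 to 87731260. Aldh1a2 (ENSMUSG00000013584) is also on chromosome 9, from 71215789 to 71296243. Upk3b (ENSMUSG00000042985) lies on chromosome 5 from 136038496 to 136046487, and Msln (ENSMUSG00000063011) on chromosome 17 from 25748613 to 25754378. Krt8 (ENSMUSG00000049382) is on chromosome 15 from 101996698 to 102004482, away from Krt19 (ENSMUSG00000020911) on chromosome 11 from 100140810 to 100148665. In GENCODE M21, Tcf21, Tbx18, Krt8 and Aldh1a2 each overlap 1 non-coding gene on the opposite strand, and Krt8 has a named pseudogene. None of these has counts of its own in the files, and the strand setting of the counting is not given. The overlap is of whole genes, and overlap of exons was not checked. Whether reads of the overlapping genes were counted for Tcf21, Tbx18, Krt8 and Aldh1a2 is therefore not known.

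RefSeq promoter sequences (GRCm38.p6) were at hand for 5 of the 8 genes, Tcf21, Tbx18, Upk3b, Krt8 and Aldh1a2. The 250 bases before the start of 3 of them are shown, 5′ to 3′ on the strand of the gene and with each CG dinucleotide in capitals, because Tbx18 and Aldh1a2 were the members with the narrowest spread among MI libraries and Upk3b was among those with a wide one. Krt8 had the widest spread, and its window is not shown. Whether promoter letters go with spread was not tested. The Tbx18 window is chr9:87731261-87731510 on the minus strand, the Aldh1a2 window chr9:71215539-71215788 on the plus strand and the Upk3b window chr5:136038246-136038495 on the plus strand.
Tbx18: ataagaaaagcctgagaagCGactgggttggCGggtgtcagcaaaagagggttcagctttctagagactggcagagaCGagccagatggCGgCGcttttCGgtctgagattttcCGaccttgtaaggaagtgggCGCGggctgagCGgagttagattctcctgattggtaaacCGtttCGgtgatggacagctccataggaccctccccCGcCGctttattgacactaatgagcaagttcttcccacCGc
Aldh1a2: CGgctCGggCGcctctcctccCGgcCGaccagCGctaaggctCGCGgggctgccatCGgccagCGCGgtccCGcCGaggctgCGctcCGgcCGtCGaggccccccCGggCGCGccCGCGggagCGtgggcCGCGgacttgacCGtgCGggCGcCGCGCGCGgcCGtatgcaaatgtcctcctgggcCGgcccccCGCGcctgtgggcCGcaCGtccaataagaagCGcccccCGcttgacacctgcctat
Upk3b: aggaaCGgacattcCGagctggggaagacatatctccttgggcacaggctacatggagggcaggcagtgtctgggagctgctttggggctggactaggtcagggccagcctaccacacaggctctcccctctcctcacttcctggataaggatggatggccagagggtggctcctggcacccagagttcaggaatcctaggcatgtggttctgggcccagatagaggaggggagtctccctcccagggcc

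The Aldh1a2 window held 40 CG dinucleotides and was 77.6% G or C. The Tbx18 window held 15 and was 54.0% G or C, and the Upk3b window held 2 and was 60.8% G or C. The windows of Tcf21 and Krt8 held 5 and 3, so 2 of the 5 windows were above the median of 6 CG dinucleotides over 32851 mouse promoter windows of the same length. On either strand, GGAATG, the core letters read by TEAD factors, occurred in the Upk3b window and in 12.64% of all windows. AGATAA, the letters read by GATA factors, occurred in the windows of Tcf21 and Krt8 and in 9.988% of all windows. The letters of the TATA box (TATAAA), of an E-box (CAGCTG) and of a T-box site (AGGTGTG) occurred in none of the 5 windows, and in 12.37%, 13.0% and 5.105% of all windows. CAGCTG reads the same on both strands, none of these motifs contains another, and a match of letters is a description, not a binding site.

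Levels were compared between genes per length of the transcribed exons, as RPKM, which divides the CPM of a gene by its exon length in kilobases. In the 5 naive libraries, Tcf21 had the highest level, with a median of 22.7 RPKM (range 15.5 to 24.0), and Aldh1a2 followed at 7.75 RPKM (range 5.46 to 8.70). Upk3b had a median of 4.25 RPKM, Krt19 of 1.90, Msln of 1.83, Tbx18 of 1.78 and Wt1 of 1.16 RPKM, and the ranges of neighbours in this order overlapped. Krt8 was the lowest at 0.309 RPKM (range 0.166 to 0.601), below the range of Wt1. In the 6 MI libraries Tcf21 remained highest with a median of 44.01 RPKM (range 28.1 to 84.4), again above the whole range of Aldh1a2 at 14.5 RPKM (range 10.8 to 16.9). Msln, at 7.01 RPKM, came next after MI, ahead of Upk3b at 6.68, Tbx18 at 4.66, Krt19 at 3.92 and Krt8 at 1.27 RPKM, and Wt1 was last at 1.01 RPKM, with overlapping ranges from Aldh1a2 downward.

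**Figure D1:**
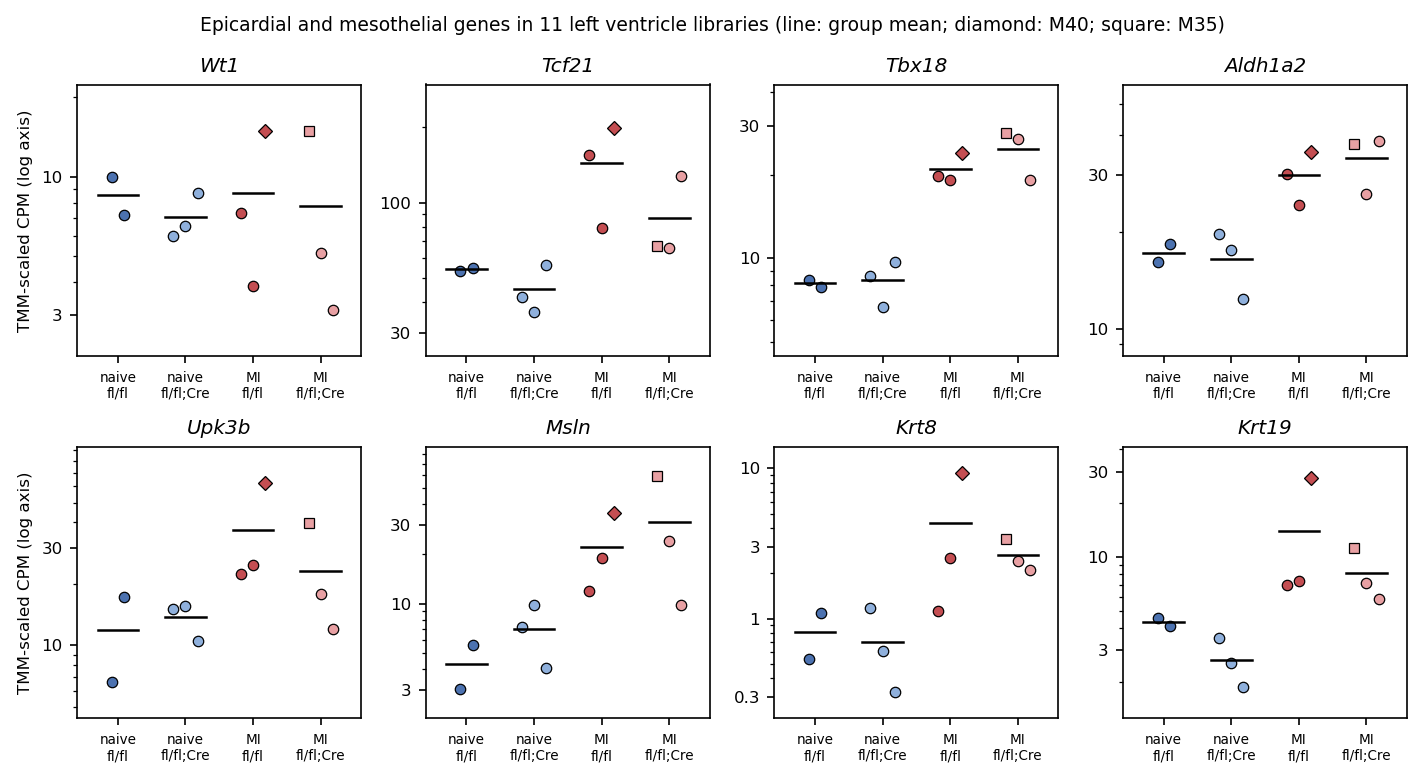
CPM scaled by TMM, on log axes, of each of the 8 genes in each library by group (fl/fl;Cre stands for Vegfc fl/fl LysMCre), with the group mean as a line, MI library M40 as a diamond and M35 as a square. Tbx18 rises from at most 9.68 CPM in naive libraries to at least 19.1 CPM after MI with little spread, Wt1 spreads from 3.15 to 14.9 CPM after MI, and M40 is the top MI Vegfc fl/fl library in every panel.

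The first comparison asked how the 8 genes differed between infarcted and naive ventricle. Tcf21, Tbx18, Aldh1a2, Msln and Krt19 were higher after MI in both genotypes, Krt8 passed the test in Vegfc fl/fl but not in LysMCre hearts, and Upk3b and Wt1 did not pass in either. In Vegfc fl/fl hearts 6 of the 8 were called higher and 0 lower at an adjusted p under 0.05 (edgeR quasi-likelihood test, Benjamini-Hochberg adjusted over 14779 genes), where 26.3% of all genes tested were called higher and 24.1% lower. In LysMCre hearts 5 of the 8 were called higher and 0 lower, where 30.0% of all genes were called higher and 27.7% lower. The median log2 fold change over the 8 genes was 1.51 in Vegfc fl/fl and 1.30 in LysMCre hearts, beside 0.13 and 0.097 over all genes tested. In bulk tissue, more cells of a type and more RNA per cell cannot be told apart, so these are levels of the whole piece of ventricle.

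Among the transcription factors, Tbx18, a T-box factor of the embryonic epicardium, was at 8.38 and 7.88 CPM in the naive Vegfc fl/fl libraries M44 and M45 and at 19.9, 19.1 and 24.1 CPM in M006, M38 and M40, the Vegfc fl/fl libraries after MI. In LysMCre hearts Tbx18 was at 8.63, 6.66 and 9.68 CPM in naive M149, M150 and M34 and at 28.3, 26.9 and 19.2 CPM after MI in M35, M900 and M913. The lowest MI library was thus 2.28 times the highest naive one in Vegfc fl/fl hearts and 1.98 times in LysMCre hearts, with no overlap. The log2 fold change of Tbx18 was 1.37 (SE 0.22, adjusted p = 0.000995) in Vegfc fl/fl and 1.57 (SE 0.20, adjusted p = 0.000143) in LysMCre hearts in the edgeR quasi-likelihood test (Benjamini-Hochberg adjusted). Tbx18 is the member whose call held in both genotypes when any library was left out or any setting changed. Which cells of the ventricle gave the Tbx18 reads was not tested.

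Tcf21, a bHLH factor of epicardial and fibroblast cells, was at 53.4 and 54.9 CPM in naive Vegfc fl/fl hearts and at 154.9, 78.8 and 198.2 CPM in M006, M38 and M40 after MI. It was at 42.0, 36.4 and 56.4 CPM in naive LysMCre hearts (M149, M150 and M34) and at 67.0, 66.0 and 127.9 CPM in M35, M900 and M913 after MI. Every MI library lay above every naive library of its genotype, M40 and M006 being the highest. For Tcf21 this gave a log2 fold change of 1.41 (SE 0.40, adjusted p = 0.0150) in Vegfc fl/fl and 0.95 (SE 0.35, adjusted p = 0.0381) in LysMCre hearts in the edgeR quasi-likelihood test (Benjamini-Hochberg adjusted). The LysMCre value was 0.53 (adjusted p = 0.186, same edgeR test) without M913, and its call was also lost without M149 (0.90, adjusted p = 0.0890), M150 (0.82, adjusted p = 0.123), M44 or M45 (adjusted p = 0.0526 and 0.0527). The Vegfc fl/fl call of Tcf21 was lost without M44 (1.39, adjusted p = 0.0860, edgeR) or M45 (1.43, adjusted p = 0.0824).

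Wt1, the zinc finger factor that is used most often to mark activated epicardium, was at 9.99 and 7.16 CPM in naive Vegfc fl/fl hearts and at 7.32, 3.85 and 14.9 CPM in M006, M38 and M40 after MI. In LysMCre hearts it was at 5.98, 6.54 and 8.71 CPM in naive libraries and at 14.9, 5.16 and 3.15 CPM in M35, M900 and M913 after MI. After MI the libraries of both genotypes lay on both sides of the naive ones, with 1 high library in each group, M40 and M35. For Wt1 the log2 fold change was 0.022 (95% interval -1.42 to 1.46, adjusted p = 0.980) in Vegfc fl/fl and 0.11 (95% interval -1.19 to 1.42, adjusted p = 0.877) in LysMCre hearts in the edgeR quasi-likelihood test (Benjamini-Hochberg adjusted), intervals that include a 2-fold change in either direction. Its direction followed the high libraries, as the log2 fold change was -0.63 without M40 in Vegfc fl/fl and -0.77 without M35 in LysMCre hearts.

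Aldh1a2, the retinoic acid-forming enzyme, was at 16.1 and 18.3 CPM in naive Vegfc fl/fl hearts and at 30.4, 24.3 and 35.4 CPM in M006, M38 and M40 after MI. In LysMCre hearts Aldh1a2 was at 19.7, 17.5 and 12.4 CPM in naive M149, M150 and M34 and at 37.6, 26.2 and 38.3 CPM in M35, M900 and M913 after MI. The groups did not overlap, and the lowest MI library was 1.33 times the highest naive one in both genotypes. Aldh1a2 had a log2 fold change of 0.80 (SE 0.25, adjusted p = 0.0201) in Vegfc fl/fl and 1.04 (SE 0.22, adjusted p = 0.00237) in LysMCre hearts in the edgeR quasi-likelihood test (Benjamini-Hochberg adjusted). The call in Vegfc fl/fl hearts was lost without M40 (0.67, adjusted p = 0.0602, edgeR), M44 (0.72, adjusted p = 0.126) or M45 (0.90, adjusted p = 0.0703), and the call in LysMCre hearts held when any library was left out.

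Among the mesothelial surface proteins, Msln was at 3.03 and 5.62 CPM in naive Vegfc fl/fl hearts and at 11.9, 19.0 and 35.1 CPM in M006, M38 and M40 after MI. In LysMCre hearts it was at 7.26, 9.80 and 4.07 CPM in naive M149, M150 and M34 and at 59.3, 23.9 and 9.77 CPM in M35, M900 and M913 after MI. The groups did not overlap in Vegfc fl/fl hearts, and in LysMCre hearts the lowest MI library, M913, fell just below the highest naive library, M150. The log2 fold change of Msln was 2.35 (SE 0.77, adjusted p = 0.0270) in Vegfc fl/fl and 2.15 (SE 0.64, adjusted p = 0.0158) in LysMCre hearts in the edgeR quasi-likelihood test (Benjamini-Hochberg adjusted). Without M35, the LysMCre value was 1.28 (adjusted p = 0.0690, same edgeR test), and without M40 the Vegfc fl/fl value was 1.84 (adjusted p = 0.0722).

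Upk3b was at 6.60 and 17.3 CPM in naive Vegfc fl/fl hearts and at 22.4, 24.7 and 62.5 CPM in M006, M38 and M40 after MI. In LysMCre hearts it was at 15.0, 15.6 and 10.5 CPM in naive M149, M150 and M34 and at 39.7, 17.9 and 12.1 CPM in M35, M900 and M913 after MI. The MI libraries lay above the naive ones in Vegfc fl/fl hearts, while in LysMCre hearts M913 lay below 2 naive libraries. Upk3b did not pass the test, with log2 fold changes of 1.61 (SE 0.62, 95% interval 0.23 to 2.997, adjusted p = 0.0518) in Vegfc fl/fl and 0.76 (SE 0.53, 95% interval -0.43 to 1.94, adjusted p = 0.243) in LysMCre hearts in the edgeR quasi-likelihood test (Benjamini-Hochberg adjusted). The DESeq2 Wald test called it in Vegfc fl/fl hearts (adjusted p = 0.0220). Single libraries moved Upk3b, since the Vegfc fl/fl value was 0.98 without M40 (adjusted p = 0.175, edgeR) and 2.47 without M45, and the LysMCre value was 0.13 without M35 (adjusted p = 0.834).

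Of the keratins, Krt19 was at 4.55 and 4.08 CPM in naive Vegfc fl/fl hearts and at 6.998, 7.37 and 27.6 CPM in M006, M38 and M40 after MI. In LysMCre hearts Krt19 was at 3.53, 2.54 and 1.87 CPM in naive M149, M150 and M34 and at 11.3, 7.17 and 5.80 CPM in M35, M900 and M913 after MI. All MI libraries lay above the naive ones, and M40 was far above the rest. Krt19 had a log2 fold change of 1.70 (SE 0.61, adjusted p = 0.0395) in Vegfc fl/fl and 1.61 (SE 0.55, adjusted p = 0.0284) in LysMCre hearts in the edgeR quasi-likelihood test (Benjamini-Hochberg adjusted), and the first fell to 0.74 (adjusted p = 0.137) without M40.

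Krt8, the least abundant member, was at 0.535 and 1.09 CPM in naive Vegfc fl/fl hearts and at 1.1305, 2.54 and 9.28 CPM in M006, M38 and M40 after MI. In LysMCre hearts it was at 1.18, 0.605 and 0.326 CPM in naive M149, M150 and M34 and at 3.41, 2.43 and 2.11 CPM in M35, M900 and M913 after MI. The groups did not overlap, though M006 stood only 1.04 times above naive M45. These levels rest on few reads, 4 to 12 in each naive library and 21 in M006. The log2 fold change of Krt8 was 2.41 (SE 0.88, adjusted p = 0.0418) in Vegfc fl/fl and 1.92 (SE 0.78, adjusted p = 0.0553) in LysMCre hearts in the edgeR quasi-likelihood test (Benjamini-Hochberg adjusted). Without M40 the first was 1.19 (adjusted p = 0.159), and without the library labelled naive LysMCre M149 the second was 2.54 (adjusted p = 0.0451).

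Counted over the list, the MI libraries lay wholly above the naive ones for 7 of the 8 genes in Vegfc fl/fl hearts, all but Wt1, where 39.1% of all genes tested did so. They lay wholly above for 5 of the 8 in LysMCre hearts, Tcf21, Tbx18, Aldh1a2, Krt19 and Krt8, where 33.6% of all genes did. The count of 6 called genes in Vegfc fl/fl hearts was 1 without either naive library, which leaves 1 naive library in that group, and 2 without M40. Tbx18 was the gene that kept its call without M44 or M45, and Tbx18 and Tcf21 kept theirs without M40, while Krt19 and Krt8 also lost their calls without M150, M900 or M913 (adjusted p of 0.0537 to 0.0606, edgeR). The count of 5 in LysMCre hearts was 3 without M150 (Tcf21 and Krt19 lost) and without M34 or M35 (Msln and Krt19 lost), and without M149 it was 5, with Tcf21 lost and Krt8 gained.

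**Figure D2:**
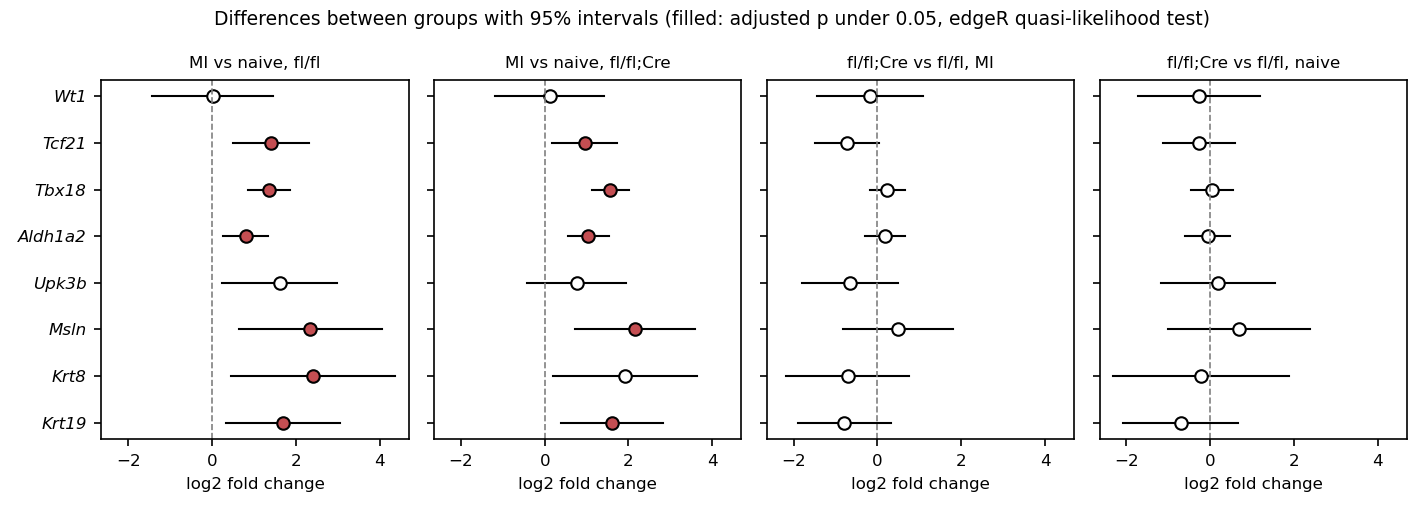
Log2 fold change of each gene with its 95% interval in 4 comparisons, from 1 edgeR fit of all 11 libraries, with filled points for an adjusted p under 0.05. Filled points, 6 in Vegfc fl/fl and 5 in LysMCre hearts, appear only in the 2 panels of MI against naive, and every interval in the 2 panels of genotype includes 0.

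The second comparison asked whether the 8 genes differed between hearts with and without LysMCre. After MI none was called by edgeR's quasi-likelihood test, where 0% of all genes were called, 1173 genes or 7.94% had an unadjusted p under 0.05, and the DESeq2 Wald test called 61 genes, none of them a member. Tcf21 had the smallest p among the members, with 86.98 ± 35.4 CPM (SD, n = 3) in MI LysMCre and 144.0 ± 60.4 CPM (SD, n = 3) in MI Vegfc fl/fl hearts, overlapping groups and a log2 fold change of -0.73 (95% interval -1.49 to 0.038, Benjamini-Hochberg adjusted p = 0.645, edgeR quasi-likelihood test). The intervals were narrowest for Tbx18, at 0.24 (95% interval -0.18 to 0.65), and for Aldh1a2, at 0.18 (95% interval -0.29 to 0.64). The mesothelial genes had wide intervals, from -0.83 to 1.80 around 0.49 for Msln, from -1.81 to 0.48 around -0.66 for Upk3b, from -1.91 to 0.31 around -0.80 for Krt19 and from -2.19 to 0.76 around -0.71 for Krt8. Differences of 2-fold or more were therefore within the intervals of Wt1, Tcf21, Upk3b, Msln, Krt19 and Krt8, so a p above the threshold does not show that their levels were alike in the 2 genotypes. No member separated the groups after MI, where 12.1% of all genes did so in either direction.

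In naive hearts 0 members and 0% of all genes were called between the genotypes by edgeR's quasi-likelihood test, with 499 genes or 3.38% at an unadjusted p under 0.05 and 14 genes called by the DESeq2 Wald test. Krt19 alone separated the naive groups, being lower in LysMCre hearts by 0.71 on the log2 scale (95% interval -2.09 to 0.67, adjusted p = 1 by edgeR with Benjamini-Hochberg adjustment), where 10.1% of all genes lay wholly lower. The log2 differences of the other 7 ran from -0.27 for Wt1 to 0.69 for Msln. The test of whether the MI response differed between the genotypes called 0 members and 0% of all genes, beside 1226 genes or 8.30% at an unadjusted p under 0.05 and 54 genes by the DESeq2 Wald test. For the members this difference of log2 fold changes ran from -0.86 for Upk3b (95% interval -2.64 to 0.93) to 0.24 for Aldh1a2 (95% interval -0.47 to 0.96), with adjusted p of 0.795 to 0.984 (interaction test in edgeR, Benjamini-Hochberg adjusted). The calls of Krt8 in 1 genotype and not in the other thus came with a difference of -0.49 (95% interval -3.08 to 2.09).

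The members differed in how widely they spread among infarcted hearts. Over the 6 MI libraries the highest was 1.48 times the lowest for Tbx18, 1.57 times for Aldh1a2 and 3.001 times for Tcf21. The same ratio was 4.74 for Wt1, 4.76 for Krt19, 5.19 for Upk3b, 6.07 for Msln and 8.21 for Krt8. The same libraries recurred across the genes. M40 was the highest MI Vegfc fl/fl library for all 8 genes. M35 was the highest MI LysMCre library for 6 of 8, the exceptions being Tcf21 and Aldh1a2, which were highest in M913. For how many of all genes M40 or M35 was highest was not counted. Among lists read below, M40 led its group for 12 of 18 retinoic acid, 4 of 10 fibroblast and 0 of 9 cardiomyocyte genes. M35 led its group for 6, 4 and 9 of these. M913 was the lowest MI LysMCre library for the 6 genes that M35 led.

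**Figure D3:**
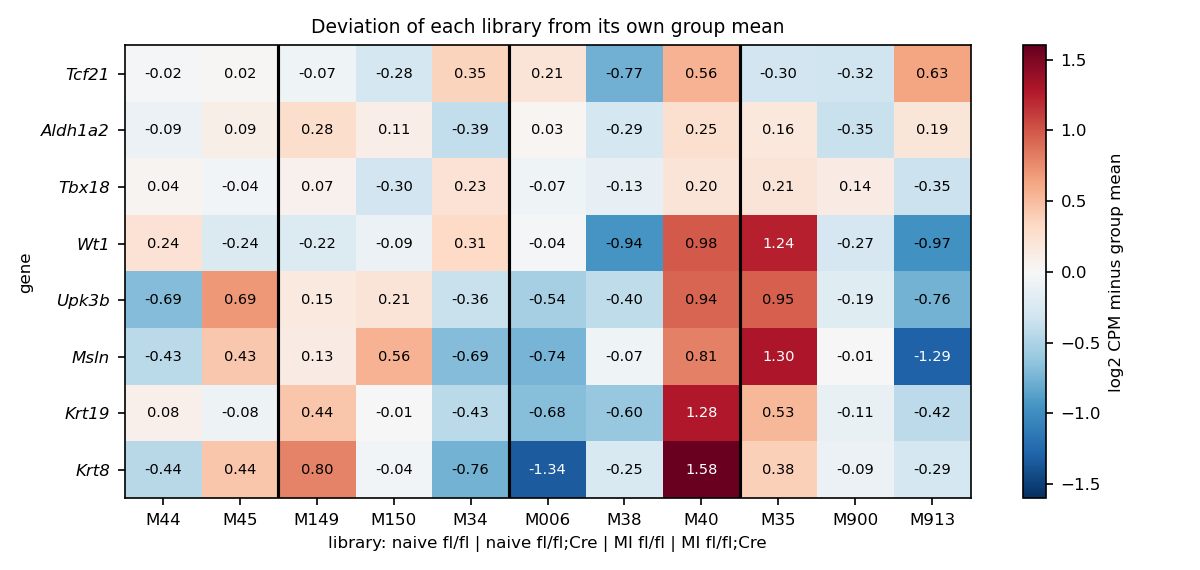
Log2 CPM of each gene (rows) in each library (columns, separated by group) minus the mean of its own group, as colour and number. In M40 all 8 genes lie above the group mean, from 0.20 for Tbx18 to 1.58 for Krt8, and in M35 Tcf21 alone lies below it, at -0.30.

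After each group's mean was removed, Upk3b and Msln deviated most alike over the 11 libraries (Pearson r = 0.916), followed by Krt19 and Krt8 (r = 0.887), Upk3b and Krt8 (r = 0.782) and Upk3b and Krt19 (r = 0.758). Wt1 went with Tbx18 (r = 0.723) and Krt19 (r = 0.697). Tcf21 stood apart, with r = -0.390 against Msln, -0.056 against Upk3b and 0.033 against Tbx18. These coefficients describe 11 libraries that share their depth and tissue composition across genes, and they carry no test. Over all genes tested, the deviations most like those of Msln were of Vtcn1 (r = 0.973), and those most like Upk3b were of Bnc1 (r = 0.950), which encodes basonuclin 1 and is itself one of the mesothelial genes listed below. Gas1 was nearest to Wt1 (r = 0.949), Rab10os to Tcf21 (r = 0.952), Fam76b to Tbx18 (r = 0.952), Smpd3 to Krt19 (r = 0.963), Rab11fip5 to Krt8 (r = 0.956) and Palm3 to Aldh1a2 (r = 0.900). Has1, a hyaluronan synthase, came after Rab11fip5 and Tmem17 for Krt8 (r = 0.939), and the next nearest genes for the others were Lgi3 and 2310030G06Rik for Msln, Dnajc6 and Lpar2 for Upk3b, Capn11 and Calca for Wt1, Sox12 and Irf3 for Tcf21, Dph6 and Man2a1 for Tbx18, Irs2 and Wiz for Krt19, and Gucy1a2 and Ahsg for Aldh1a2.

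Other genes of mesothelial cells were read from a list of 12. In Vegfc fl/fl hearts 10 of the 12 were called higher after MI and 0 lower, where 26.3% and 24.1% of all genes were. In LysMCre hearts 6 were called higher, all among the 10, and 0 lower, where 30.0% and 27.7% of all genes were. The median log2 fold changes were 2.62 and 1.56, beside 0.13 and 0.097 over all genes tested. Sema3d, a secreted semaphorin of epicardial cells, had the smallest p in both genotypes, with log2 fold changes of 2.79 (SE 0.36, adjusted p = 0.000362) and 2.62 (SE 0.30, adjusted p = 0.000101) in the edgeR quasi-likelihood test (Benjamini-Hochberg adjusted). Gpm6a, a membrane glycoprotein, rose by 1.89 and 1.09, and Upk1b, a uroplakin like Upk3b, by 3.71 and 2.33 on the same scale. Dmkn rose by 5.10 and 2.15, with 46.2 CPM in M40 and at most 12.4 CPM in the other MI libraries. Rspo1, an activator of Wnt signalling, rose by 2.33 in Vegfc fl/fl hearts and had a value of 0.68 that did not pass in LysMCre hearts (adjusted p = 0.108, same edgeR test), with a difference between the responses of -1.65 that did not pass either (adjusted p = 0.543). Nkain4 and Cldn15 passed in neither genotype.

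The library pattern of the 8 genes recurred in this list, in which M40 was the highest MI Vegfc fl/fl library for 11 of 12 genes and M35 the highest MI LysMCre library for 12 of 12. Naive M44 was the lowest naive library for 10 of 12. Without M44 the count of called genes was 5 rather than 10 in Vegfc fl/fl hearts, and without M150 it was 3 rather than 6 in LysMCre hearts. Between the genotypes 0 of the 12 were called, with a median log2 fold change of -0.59 after MI and 0.52 in naive hearts. The difference between the MI responses was negative for 12 of 12 and 0 were called, where it was negative for 7792 of the 14779 genes tested. That comparison rests on the 2 naive Vegfc fl/fl libraries. Because the 12 genes shared their high and low libraries, they do not count as 12 separate observations.

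**Figure D4:**
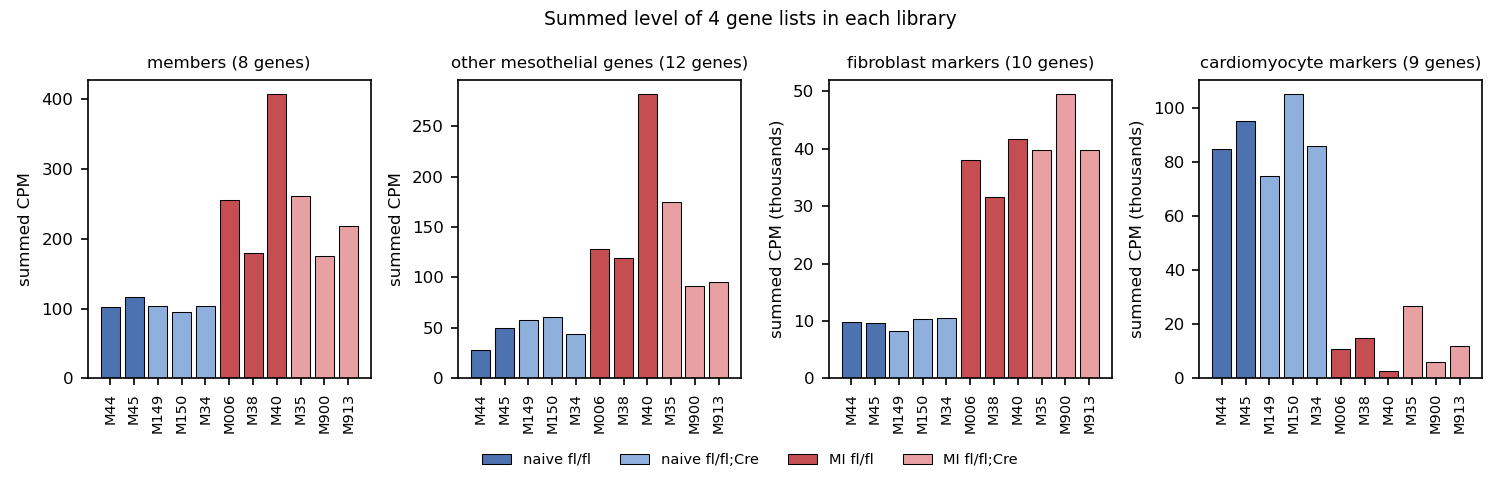
Summed CPM of 4 gene lists in each library, with bars from 0 the last 2 panels being on a larger scale, as their axes state. The 8 members and the 12 other mesothelial genes peak in M40, at 407 and 282 CPM, where the 9 cardiomyocyte genes are lowest, at 2688 CPM, whereas the 10 fibroblast genes are at 31578 to 49519 CPM in all 6 MI libraries.

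The summed level of the 8 genes was 95.7 to 116 CPM in the naive libraries, 180 to 407 CPM in MI Vegfc fl/fl and 176 to 261 CPM in MI LysMCre hearts. Genes of other cell types also changed, some higher and some lower. Over all genes tested, 26.3% were called higher and 24.1% lower after MI in Vegfc fl/fl hearts, and 30.0% and 27.7% in LysMCre hearts. Of 9 mural cell (pericyte and smooth muscle) genes, 5 were called higher and 3 lower in each genotype. Of 8 blood endothelial genes, 0 were called higher and 2 lower in Vegfc fl/fl hearts, and 2 higher and 2 lower in LysMCre hearts. Of the 9 cardiomyocyte genes, 9 were called lower after MI in both genotypes, and their sum was 74856 to 104967 CPM in naive and 2688 to 26623 CPM in MI libraries. M40, the library with the highest members, had the lowest cardiomyocyte sum, and M35, with the highest members of its group, had the highest, at 26623 CPM. Of 10 fibroblast genes, 5 were called higher and 1 lower in Vegfc fl/fl hearts and 7 higher and 1 lower in LysMCre hearts, with a sum of 8267 to 10522 CPM in naive and 31578 to 49519 CPM in MI libraries. The sum of 7 macrophage markers other than Lyz2 was 1289 to 1966 CPM in naive libraries, 2567 to 4669 CPM in MI Vegfc fl/fl libraries and 1802 to 3877 CPM in MI LysMCre libraries, so that it overlapped between the genotypes after MI. The part of tissue composition in the values of the 8 genes was not tested.

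Pleural mesothelium and lung share Upk3b, Msln and the keratins, so 8 lung epithelial genes were read as well. Nkx2-1 and Sftpa1 had 0 reads in every library, and Sftpc, Sftpb and Sftpd were at most 0.353 CPM. Sftpc had reads only in MI LysMCre libraries, with its highest value, 0.353 CPM, in M35. In M35, 5 of the 8 were at or under 3 reads, and in each other library 6 or 7 were. Scgb1a1 was at 0.453 and 1.34 CPM in naive Vegfc fl/fl libraries and at 0 to 2.16 CPM in naive LysMCre libraries. After MI it was at most 0.0538 CPM. A lung or pleural source of the members' reads was not tested. Of the 2 lung genes tested, 1 was called higher and 1 lower after MI in Vegfc fl/fl hearts, where 26.3% and 24.1% of all genes were. In LysMCre hearts 0 were called higher and 1 lower, where 30.0% and 27.7% of all genes were. The sum of the 8 lung genes was 2.54 to 11.7 CPM in naive and 10.3 to 34.4 CPM in MI libraries. It was carried mostly by Napsa, which was at 34.01 CPM in M38 and at 17.7 and 9.52 CPM in M40 and M35. Of 10 genes of epithelial to mesenchymal transition, 6 were called higher and 1 lower in Vegfc fl/fl hearts, where 26.3% and 24.1% of all genes were. In LysMCre hearts 6 were called higher and 0 lower, where 30.0% and 27.7% of all genes were. Snai2, a repressor of epithelial genes, rose by 1.42 and 1.26, and Vim, vimentin, by 1.58 and 1.40 on the log2 scale. Cdh1, the epithelial cadherin, also rose, from at most 0.362 CPM in naive libraries to 1.35 to 4.26 CPM after MI, and Cdh2, a cadherin abundant in cardiomyocytes, fell by 0.98 in Vegfc fl/fl hearts.

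Of 18 listed genes of retinoic acid handling, the pathway of Aldh1a2, 17 were tested. In Vegfc fl/fl hearts 6 were called higher and 2 lower after MI, where 26.3% and 24.1% of all genes were, and in LysMCre hearts 7 higher and 3 lower, where 30.0% and 27.7% of all genes were, so that the counts were near those of genes at large. The same 6 higher and 2 lower genes were called in both, and the median log2 fold change was 0.46 and 0.76, beside 0.13 and 0.097 over all genes tested. Cyp26a1, which degrades retinoic acid, had 0 reads in both naive Vegfc fl/fl libraries and 5.49, 6.12 and 4.95 CPM in M006, M38 and M40, which put it at least 20.3-fold higher after MI, from the mean of the MI group over the limit of 3 reads in a library. In LysMCre hearts Cyp26a1 had at most 2 reads in a naive library and 12.6, 4.15 and 5.09 CPM in M35, M900 and M913. Crabp2, a carrier of retinoic acid into the nucleus, was at most 0.570 CPM in naive libraries and at 2.31 to 19.3 CPM after MI, highest in M40. Aldh1a3, another retinoic acid-forming enzyme, rose by 1.86 and 2.24 on the log2 scale.

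The receptors of retinoic acid did not move together. Rara and Rarg were called higher in both genotypes, by 0.95 and 0.90 in Vegfc fl/fl and by 1.08 and 1.09 in LysMCre hearts on the log2 scale. Rarb, itself a target of retinoic acid in many cells, was called lower in both, by 1.24 and 1.22. Rxrg fell by 3.62 and 3.07, from 101 to 140 CPM in naive libraries to 2.31 to 24.1 CPM after MI, and was lowest in M40 and highest in M35 among MI libraries, as the cardiomyocyte sum was. None of the 17 genes was called between the genotypes by edgeR's quasi-likelihood test, in MI or in naive hearts.

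**Figure D5:**
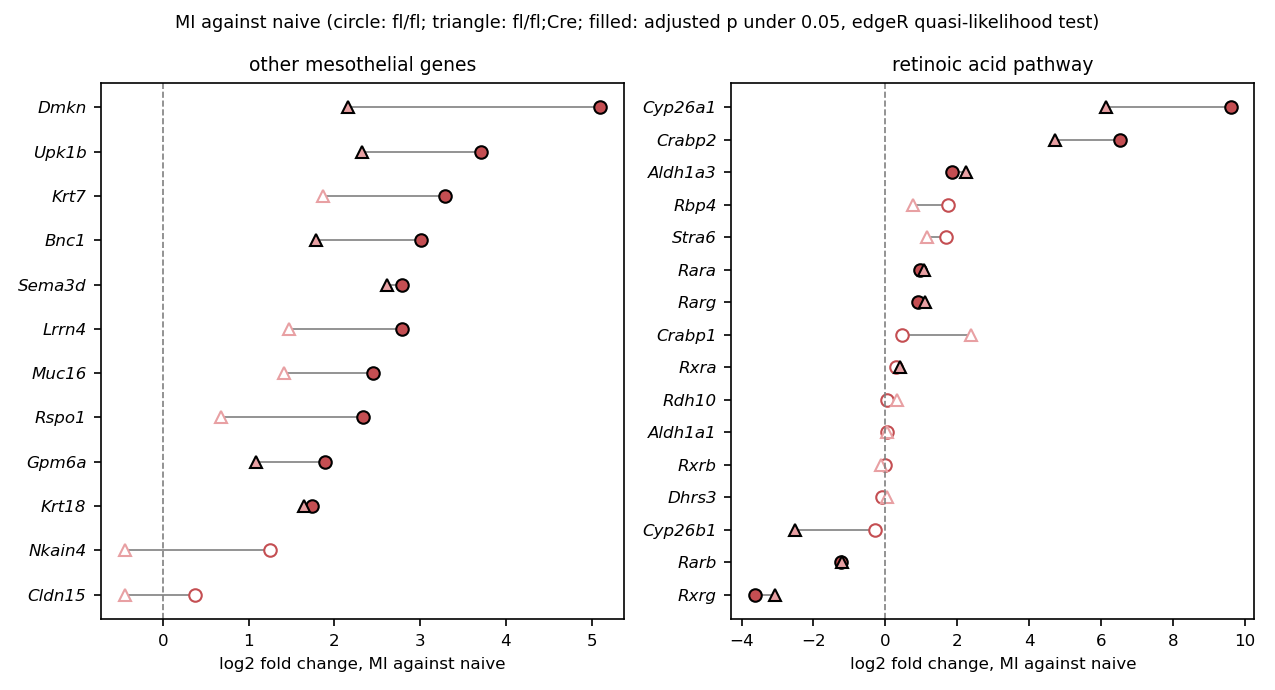
Log2 fold change of MI against naive hearts for 12 other mesothelial genes and 16 of the 17 tested genes of retinoic acid handling, with circles for Vegfc fl/fl and triangles for LysMCre hearts and filled symbols for an adjusted p under 0.05. The mesothelial genes that passed all lie to the right of 0, with 10 filled circles and 6 filled triangles, whereas Rarb and Rxrg lie to the left, and the points of Cyp26a1 and Crabp2, which had 0 to 2 reads in each naive Vegfc fl/fl library, depend on the small count added by the fit.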

How the data were processed

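Left ventricle RNA of 11 mice was read as TruSeq Stranded mRNA libraries, 1 per mouse. The authors deposited raw read counts per Ensembl gene for each library, without normalization. The submitters' processing notes name genome build mm10, cutadapt 1.13, STAR, HTSeq 0.6.1p1 and DESeq2 1.14.1, and the strand setting of the counting is not given in the sources used here. From the deposited counts, genes were filtered with edgeR's filterByExpr by group (14779 of 25006 genes kept), scaled by TMM and tested with edgeR 4.0.16 (R 4.3.3) by the quasi-likelihood test in 1 fit of 4 group means over all 11 libraries, with Benjamini-Hochberg adjustment over all genes tested and a threshold of 0.05. Standard errors came from the fold change and its F statistic. The test was checked on simulated counts. CPM were scaled by TMM. RPKM used the summed exon length of each gene in GENCODE M21, in which 24991 of the gene IDs matched. Correlations were taken on log2 CPM (prior count 2). No pair of replicates was alike within sampling noise (chi-square per gene of 8.65 to 171.5). Each mouse was taken as a replicate, and the labels give no batch. The 8 genes, the lists and the comparisons were chosen with earlier results of these data known. Of the lists, the genes named are those with the smallest p, at most 4 for each list and comparison, and for each of the 8 genes the 3 with the highest correlation. Rara, Rarb, Vegfc, Nkx2-1, the surfactant genes, Xist and the Y-linked genes were named outside this rule, after their values were seen. Alternatives were DESeq2 1.42.0, median-ratio (RLE) and upper-quartile scaling, no filter, a mean CPM of at least 1, fits of only the groups compared, a minimum log2 fold change of 1 and leaving out each library in turn. A gene of the retinoic acid list is counted in its totals and not reported here.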

Additional observations from a re-analysis of the deposited data

Results flagged for a closer look

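Of the genes read beside the 8, Cdh5, the cadherin of endothelial junctions, was picked for the order of its libraries. Its MI libraries lay wholly below the naive ones in Vegfc fl/fl hearts and wholly above them in LysMCre hearts. That order is how Cdh5 was chosen and not a separate result, and the share of all genes with it is not given here. Cdh5 was at 149.4 and 141 CPM in naive Vegfc fl/fl libraries and at 139, 91.7 and 85.5 CPM in M006, M38 and M40. M006 was only just below the lower naive library, and the fall did not pass the test (log2 fold change -0.46, Benjamini-Hochberg adjusted p = 0.105, edgeR quasi-likelihood test). In LysMCre hearts Cdh5 was at 88.9, 93.7 and 126 CPM in naive libraries and at 152, 138 and 156 CPM in M35, M900 and M913. This rise had a log2 fold change of 0.53 (adjusted p = 0.0412, same test). Its p comes from the values by which Cdh5 was picked, so it is no separate support. The difference between these responses was 0.99 on the log2 scale and did not pass the test (adjusted p = 0.543, interaction test in edgeR, Benjamini-Hochberg adjusted).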

How the results depend on the processing

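Of 672 values of the 8 genes under other settings, 595 kept their direction and their side of the threshold, 32 lost a call, 11 gained one and 34 changed sign. The 34 were of uncalled values. A call could be lost only in MI against naive, where 6 members in Vegfc fl/fl and 5 in LysMCre hearts were called. Some settings also left out a library outside the groups compared. The 595 therefore do not measure how firm those calls were. Wt1 in Vegfc fl/fl hearts was -0.049 by DESeq2 and -0.051 with RLE scaling. With 1 library left out, log2 values of MI against naive ran from -0.63 to 0.32 for Wt1 in Vegfc fl/fl and from -0.77 to 0.48 in LysMCre hearts. Between genotypes after MI they ran from -1.07 to 0.47 for Wt1, -0.39 to 0.996 for Msln, -1.11 to 0.16 for Krt19 and -1.14 to 0.51 for Krt8. In naive hearts they ran from -0.087 to 0.17 for Tbx18, -0.34 to 1.05 for Upk3b, -0.84 to 0.37 for Krt8 and -0.21 to 0.11 for Aldh1a2. For the difference of responses they ran from -0.79 to 0.74 for Wt1, -1.07 to 0.31 for Msln, -0.40 to 0.87 for Krt19 and -1.08 to 0.73 for Krt8. The count of called members ran from 1 to 7 in Vegfc fl/fl and from 3 to 6 in LysMCre hearts with 1 library left out, and was 0 in every genotype and interaction setting run. Called mesothelial genes ran from 5 to 10 in Vegfc fl/fl and from 3 to 8 in LysMCre hearts, and called retinoic acid genes from 5 to 9 in Vegfc fl/fl hearts. Over all genes, 7450 and 8520 were called, against 4550 and 4965 with a log2 fold change of at least 1 and 4574 to 7636 and 6909 to 8564 with 1 library left out. Between genotypes DESeq2 called 61 genes after MI, 14 in naive hearts and 54 for the difference of responses, a fit of only the naive groups called 2, and leaving out a library gave 0 to 1, 0 to 17 (17 without M149) and 0 to 1. Fits of only the groups compared lost Krt19 (1.70, adjusted p = 0.0913, edgeR) and Krt8 (2.41, adjusted p = 0.0989) in Vegfc fl/fl hearts and gained Krt8 in LysMCre hearts (1.94, adjusted p = 0.0135). Upper-quartile scaling moved the median of all genes by 0.105 and 0.102 in MI against naive. The causes were not tested. No paired analysis was possible because the libraries are named by mouse and the groups share no replicate number. The naive Vegfc fl/fl group has 2 libraries.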
